A study of Mus musculus with 8 samples.

Results

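The 7 genes described here are 4 members of the CCN family of matricellular proteins (Ccn1, Ccn2, Ccn3 and Ccn4), the transcription factor gene Srf, and 2 genes linked to the co-activator YAP (Ankrd1 and Amotl2). They were taken by symbol, and all 7 were found among the 33885 symbols of both count tables. Total RNA of adult male C57Bl6J mice was sequenced, with 2 libraries in each of 4 groups (8 libraries). In the nucleus accumbens (NAc), 1 group was taken 15 min after place-preference conditioning with cocaine at 7.5 mg/kg intraperitoneally, and the other came from home-cage mice. In the medial prefrontal cortex (mPFC), 1 group was taken 15 min after social defeat by an aggressive CD1 male, and the other came from home-cage mice. The titles of all mPFC libraries carry WT (read here as wild type), and the NAc titles carry no such label. Because both control groups stayed in the home cage, cocaine cannot be told apart from injection and handling in the apparatus, nor attack from handling and exposure to another mouse. The labels do not say whether the 2 libraries of a group came from separate animals, so p-values measure the spread between these libraries, which may be technical. The test with edgeR also shares this spread across genes, so a p-value does not rest on a gene's own libraries alone.

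CCN proteins are secreted into the extracellular matrix, where they bind integrins and heparan sulfate proteoglycans and alter adhesion and growth factor signalling. Ccn1 and Ccn2 are known immediate-early genes of serum-stimulated fibroblasts and standard readouts of YAP, which enters the nucleus when the Hippo kinases are inactive and binds DNA through TEAD factors. Serum response factor, the product of Srf, binds CArG boxes and works with the ternary complex factors, which answer to MAP kinase, or with the myocardin-related factors, which answer to actin. In the brain the first of these branches is known for Fos, Arc and the Egr genes after neuronal activity.

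The promoters of Ccn1 and Srf are printed to show which letters of these motifs lie in the proximal upstream window of the gene that changed and of the serum response factor gene itself. Each is the 250 bases before the RefSeq start (GRCm38.p6, 5′ to 3′ on the gene's strand). In the Ccn1 window, chr3:145649986-145650235 on the minus strand, capitals mark CATTCC, the reverse complement of the TEAD motif GGAATG. In the Srf window, chr17:46556163-46556412 on the minus strand, capitals mark the matches to the CArG box.
Ccn1: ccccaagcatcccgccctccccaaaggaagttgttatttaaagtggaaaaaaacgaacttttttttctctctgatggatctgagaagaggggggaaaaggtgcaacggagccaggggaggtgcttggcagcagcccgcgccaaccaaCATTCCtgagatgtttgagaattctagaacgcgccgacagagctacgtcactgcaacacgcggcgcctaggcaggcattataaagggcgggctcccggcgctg
Srf: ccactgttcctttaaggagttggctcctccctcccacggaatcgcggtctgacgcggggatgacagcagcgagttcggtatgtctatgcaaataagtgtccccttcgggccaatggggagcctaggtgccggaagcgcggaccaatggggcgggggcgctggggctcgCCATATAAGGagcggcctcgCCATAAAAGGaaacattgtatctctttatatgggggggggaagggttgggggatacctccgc
The Ccn1 match ran from 103 to 98 bases before the start, and the Srf matches were CCATATAAGG and CCATAAAAGG. The last stretch of the Srf window overlapped exons annotated by GENCODE by 13 bases. Both strands were searched, and of 32851 promoter windows of this length 1.47% held a CArG box and 12.6% held GGAATG. The Ccn1 window held no CArG box, no TGANTCA (in 6.75% of windows) and no TGACGTCA (in 1.55%). The Amotl2 window held 1 GGAATG and the Ankrd1 window 2, and neither held a CArG box. These windows overlapped GENCODE exons by 136 bases for Amotl2 and by all 250 for Ankrd1, so they are not plainly upstream. Promoter sequence was matched for 5 of the 9 genes named here, counting Ccn5 and Ccn6. A match is a run of letters, not a measured binding site.

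Library totals ran from 111901829 to 179479978 counts. Levels are given as CPM (counts scaled to a common library size), scaled by TMM normalization factors over the 8 libraries. Replicates differed by more than sampling noise in every group, and more so in NAc, where chi-square per degree of freedom across genes was 165 and 325, than in mPFC, where it was 24.7 and 31.8. Markers of striatal projection neurons summed to between 1678 and 5373 CPM in NAc and between 551 and 651 CPM in mPFC. The lower NAc sums belonged to the libraries numbered 2 in both NAc groups. Markers of cortical glutamatergic neurons went the other way, from 1318 CPM in number 1 to 2022 CPM in number 2 of home-cage NAc. In the cocaine libraries they went from 1462 to 1866 CPM. The part of these differences in the levels of the 7 genes was not tested. Genes were tested with edgeR's quasi-likelihood test and called at a Benjamini-Hochberg adjusted p under 0.05 over all genes tested. Fold changes are on the log2 scale with their standard error (SE) and 95% interval.

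Ccn1 encodes a secreted CCN protein and lies at chr3:145646976-145649981 on the minus strand (GRCm38). Its level in the home-cage mPFC was 2.35 and 1.97 CPM, and after social defeat 14.2 and 13.5 CPM. In the NAc it was 1.68 and 3.20 CPM in home-cage libraries and 7.02 and 11.3 CPM after cocaine conditioning. Both home-cage groups overlapped at the bottom, the cocaine libraries lay above them, and the defeat libraries were the highest of the 8.

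After social defeat Ccn1 rose by 2.68 on the log2 scale (SE 0.112, 95% interval 2.45 to 2.90), a 6.39-fold change with an edgeR adjusted p of 2.43e-28. Of the 6 members tested in the mPFC, 1 was called and it was higher, against 0.704% of the 18027 genes tested (0.549% higher, 0.155% lower). With all 8 libraries in one fit, which shares the spread of the NAc libraries, Ccn1 had the same log2 change of 2.68 and an edgeR adjusted p of 0.136, and no member was called. Leaving out any 1 of the 4 mPFC libraries kept the Ccn1 call, with log2 changes between 2.56 and 2.82.

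After cocaine conditioning the Ccn1 log2 change was 1.91 (SE 0.410, 95% interval 0.82 to 3.01), a ratio of 3.77, with an unadjusted edgeR p of 0.00742 and an adjusted p of 1. In this fit, which has no replicate block, edgeR called none of the 7 members, against 0% of the 18418 genes tested. At an unadjusted p under 0.05, 2 members passed (Ccn1 and Amotl2), beside 211 of all 18418 genes. DESeq2 called 1 member, Ccn1, with an adjusted p of 0.00806. In the edgeR fit Ccn1 had rank 2 by log2 change and rank 10 by p among all genes tested. The NAc titles share the numbers 1 and 2 across groups, and the cocaine library was 4.17 times its same-numbered home-cage library for number 1 and 3.54 times for number 2.

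Ccn2, also called connective tissue growth factor, is a secreted profibrotic CCN protein and a marker of layer 6b neurons in cortex. It lies at chr10:24595442-24598683 and overlaps the antisense gene Gm15270, so their reads cannot be told apart where counting did not use strand, which is not given in the sources used here. Its level was 22.7 and 19.3 CPM in home-cage mPFC and 20.9 and 17.9 CPM after defeat, and these groups overlapped. The log2 change after defeat was −0.11 (SE 0.0887, 95% interval −0.29 to 0.06). In the NAc the level was 13.3 and 24.3 CPM in home-cage libraries and 24.2 and 38.2 CPM after cocaine, which overlap at their edge. Without a replicate block that log2 change was 0.73 (SE 0.374, 95% interval −0.27 to 1.73), and whether Ccn2 is called depends on the block. Within number 1 the cocaine library was 1.81 times its home-cage counterpart, and within number 2 it was 1.57 times. The cocaine group had the highest mean of the 4 groups (31.2 ± 9.90 CPM, SD, n = 2), but its lower library lay within the range of home-cage NAc.

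The other CCN members did not pass the test in either region. Ccn3, a family member known to oppose Ccn2 in some tissues (chr15:54745702-54754039), had 68.9 and 74.9 CPM in home-cage mPFC and 76.5 and 66.4 CPM after defeat. The groups overlapped, and the log2 change was −0.01 (SE 0.0786, 95% interval −0.16 to 0.15). In the NAc Ccn3 followed the library number, with 49.6 and 117 CPM in home-cage libraries and 54.7 and 109 CPM after cocaine. The 95% interval of its cocaine effect ran from −1.46 to 1.40, so this comparison bounds it loosely. Ccn1, Ccn2 and Ccn4 were also higher in the library numbered 2 than in that numbered 1 in both NAc groups.

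Ccn4, first described as a WNT1-inducible gene (chr15:66891320-66923201), had 9.47 and 8.45 CPM in home-cage mPFC and 10.8 and 11.2 CPM after defeat. The groups did not overlap, but the log2 change of 0.30 (SE 0.0961, 95% interval 0.10 to 0.49) had an edgeR adjusted p of 0.209. Without home-cage replicate 1 of the mPFC it was called, at 0.38 and an edgeR adjusted p of 0.0374. In the NAc it was 0.768 and 6.03 CPM in home-cage libraries and 1.68 and 2.40 CPM after cocaine, so the home-cage pair spanned the cocaine pair. All 4 NAc libraries lay below all 4 mPFC libraries. The log2 change after cocaine was −0.73 (SE 0.956, 95% interval −3.28 to 1.83).

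Ccn5 and Ccn6 complete the family. Ccn5 had between 3 and 13 counts per library and was not tested in either treatment comparison. Ccn6 (overlapping the opposite-strand gene Tube1) had 0.715 and 0.489 CPM in home-cage mPFC and 0.585 and 0.583 CPM after defeat. Its log2 change was −0.05 (SE 0.233) after defeat and 0.14 (SE 0.229) after cocaine. Of the 6 family genes, Ccn1 alone was called after defeat, and none was called after cocaine with edgeR without a replicate block.

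**Figure D1:**
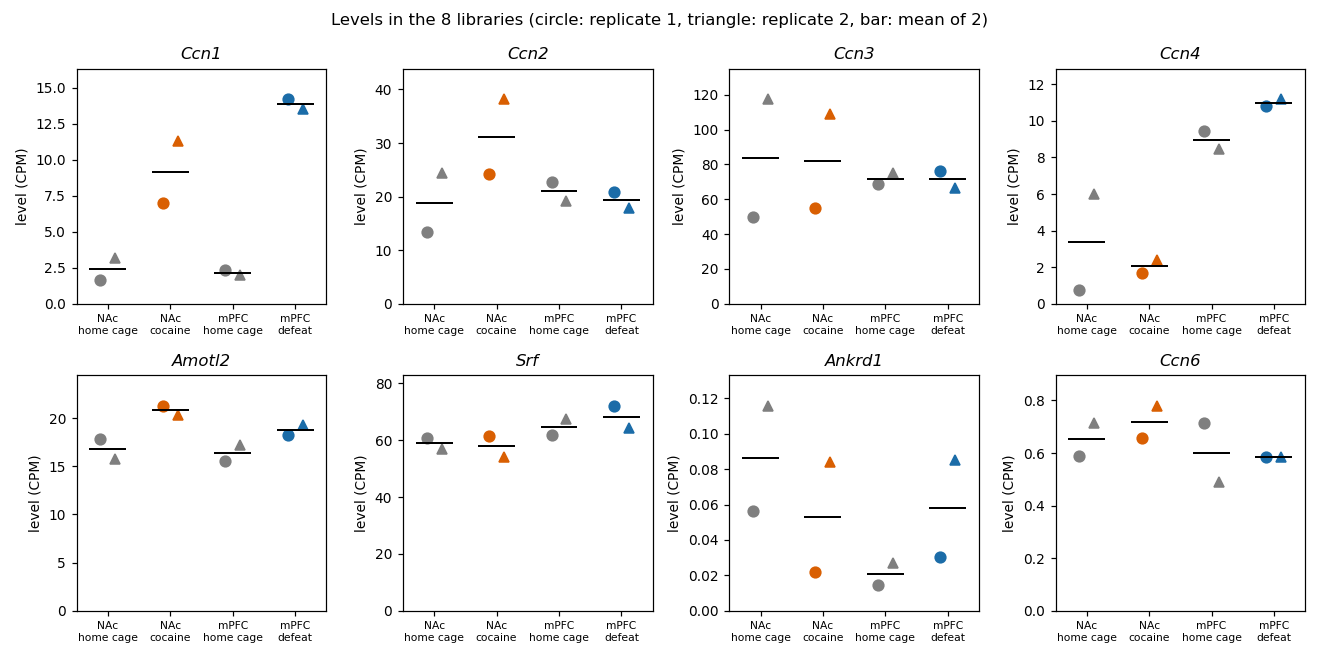
Level of each of the 7 genes and of Ccn6 in the 8 libraries, on linear axes in CPM that start at 0, with a circle for replicate 1, a triangle for replicate 2 and a bar at the mean of each of the 4 groups. Ccn1 is the gene whose treated libraries stand clear of the home-cage libraries in both regions by the widest margin, from 1.97 and 2.35 to 13.5 and 14.2 CPM in mPFC.

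Srf itself lies at chr17:46548329-46556175 on the minus strand. It overlaps the opposite-strand lincRNA Gm26904 and holds Mir6976. Its level was 62.0 and 67.4 CPM in home-cage mPFC and 72.0 and 64.3 CPM after defeat, and 60.8 and 57.0 CPM in home-cage NAc and 61.6 and 54.1 CPM after cocaine. The groups overlapped in each region. The log2 change was 0.08 (SE 0.078, 95% interval −0.08 to 0.23) after defeat and −0.03 (SE 0.101, 95% interval −0.29 to 0.24) after cocaine. Over the 4 groups, both NAc groups lay below both mPFC groups, with the highest NAc library at 61.6 and the lowest mPFC library at 62.0 CPM.

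Amotl2, an angiomotin family scaffold that binds YAP and is itself a YAP target, lies at chr9:102716672-102733418. It had 15.5 and 17.2 CPM in home-cage mPFC and 18.3 and 19.3 CPM after defeat. In the NAc it had 17.9 and 15.8 CPM in home-cage libraries and 21.2 and 20.4 CPM after cocaine. Neither pair of groups overlapped. The log2 change was 0.20 (SE 0.0866, 95% interval 0.03 to 0.38, edgeR adjusted p 0.544) after defeat and 0.31 (SE 0.101, 95% interval 0.04 to 0.58, edgeR adjusted p 1) after cocaine, and neither passed. Groups that did not overlap and were higher made up 16.4% of genes tested after defeat and 11.8% after cocaine, against 3 of 6 tested members (Ccn1, Ccn4 and Amotl2) and 2 of 7 (Ccn1 and Amotl2). Over the 4 groups the home-cage groups overlapped, the defeat libraries lay above them and the cocaine libraries highest.

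Ankrd1, a cardiac ankyrin repeat protein and standard YAP target (chr19:36111961-36120099), was close to undetected. It had 2 and 3 counts in home-cage mPFC, 4 and 12 after defeat, 10 and 16 in home-cage NAc and 3 and 12 after cocaine. It did not pass the count filter in the mPFC. After cocaine its log2 change was −0.66 (SE 0.769, 95% interval −2.71 to 1.40).

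Per kilobase of annotated exon, the levels in home-cage mPFC ran in the order Ccn3 (25.1 CPM per kb), Srf (22.4), Ccn2 (7.33), Amotl2 (2.61), Ccn4 (1.61), Ccn1 (1.07) and Ankrd1 (0.00726). After defeat the Ccn1 level was 6.87 CPM per kb, beside 6.77 for Ccn2, a difference within the SD of 0.754 for Ccn2 (n = 2). Whether the counts include intronic reads is not given, and per kilobase of the whole gene span Ccn1 (0.719) lay above Ccn4 (0.281) in home-cage mPFC.

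The direct test of the defeat response against the cocaine response uses the same libraries as both treatment comparisons. For Ccn1 the defeat response was larger by 0.76 on the log2 scale (SE 0.452, 95% interval −0.30 to 1.83, edgeR adjusted p 0.9999), which does not pass. For Ccn2 the difference was −0.84 (SE 0.432, 95% interval −1.86 to 0.17), that is, lower after defeat than after cocaine, and also not past the threshold. No member was called with edgeR, none had an unadjusted p under 0.05 and DESeq2 called none, against 0% of the 18783 genes tested with edgeR.

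Between home-cage NAc and home-cage mPFC, no member of the 6 tested was called, against 12.4% of 18300 genes (7.01% higher and 5.35% lower in NAc). Groups that did not overlap were lower in NAc for 2 of the 6 (Ccn4 and Srf), against 31.2% of genes, and higher for none, against 32.2%. None had an unadjusted p under 0.05 and DESeq2 called none. The largest difference was that of Ccn4, lower in NAc by 1.41 on the log2 scale (log2 difference −1.41, SE 0.848, edgeR adjusted p 0.317). This comparison turned on single NAc libraries. Which members were called depended on which NAc library was left out. Ccn3 was higher in NAc by 0.71 without home-cage replicate 1 of the NAc and lower, at −0.54, without replicate 2.

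**Figure D2:**
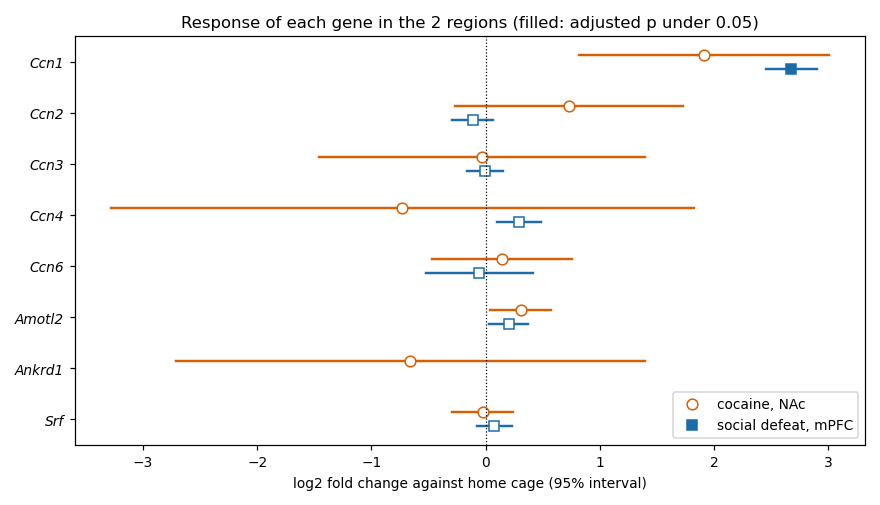
Log2 change of each gene after cocaine conditioning in NAc and after social defeat in mPFC, with lines for the 95% interval, circles for NAc, squares for mPFC and a filled symbol for an edgeR adjusted p under 0.05. Ccn6 is included, and Ankrd1 has no mPFC value because it was not tested there. The mPFC interval of Ccn1 (2.45 to 2.90) lies farthest from 0. Those of Ccn4 and Amotl2 in mPFC, and of Ccn1 and Amotl2 in NAc, also exclude 0 without an adjusted p under 0.05, and those of Ccn2, Ccn3, Ccn6 and Srf include 0 in both regions. The NAc intervals come from the fit without a replicate block, and whether Ccn1 and Ccn2 are called there depends on the block.

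The wider pathway was read from 6 lists: serum response factor targets of the ternary complex branch (12 genes) and of the myocardin-related branch (22), the cofactors of serum response factor (6), a YAP target signature (18), Hippo pathway components (16), and receptors of CCN proteins (11). The lists were chosen with earlier results of these data known. After defeat the ternary complex list was the one with calls. Of its 12 genes 9 were called higher, against 0.549% of the 18027 genes tested. Its median log2 change was 1.002 beside −0.00 for all genes tested. Fos, an AP-1 subunit, went from 8.89 and 10.1 CPM to 39.7 and 41.0 CPM. Its log2 change was 2.09 (SE 0.0874). Arc, a synaptic cytoskeletal protein, rose by 1.72 (SE 0.0870), and Junb, another AP-1 subunit, by 1.66 (SE 0.0840), both with an edgeR adjusted p of 3.61e-24. The other 6 genes that rose did so by between 0.51 and 1.76, and Mcl1, Ier3 and Egr3 did not pass (named after their values were seen). Many of these genes are also known targets of CREB, so the list is not specific to serum response factor. With all 8 libraries in one fit, Fos, Arc and Junb were no longer called, and 2 genes of the list were (Egr2 and Fosb, named after their values were seen).

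The myocardin-related and YAP lists gave no calls after defeat. Of 21 myocardin-related targets tested, none was called with edgeR or DESeq2, 1 had an unadjusted p under 0.05, beside 1288 of all 18027 genes, and the median log2 change was 0.06. The 3 with the smallest p were Acta2 (smooth muscle actin) at 0.27 (SE 0.120), Myl9 (a myosin light chain) at 0.21 (SE 0.117) and Cnn2 (a calponin) at 0.26 (SE 0.143). Acta2 is also a marker of mural cells. The 18 YAP signature genes had a median of −0.01, with none called by either tool and 1 at an unadjusted p under 0.05, which was Gadd45a, a stress-induced gene, at 0.26 (SE 0.126). Ccdc80 had −0.10 (SE 0.0922) and Fjx1 −0.08 (SE 0.0788).

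Of 16 Hippo components none was called, with a median of 0.01, and Tead4, a DNA-binding partner of YAP, had −0.24 (SE 0.162), Vgll4 −0.10 (SE 0.0773) and the kinase gene Stk4 0.08 (SE 0.0762). The 6 cofactors had a median of −0.01, with Myocd at −0.21 (SE 0.155), Mrtfa at −0.04 (SE 0.0760) and Elk4 at 0.04 (SE 0.0805). The 10 receptor genes tested had a median of −0.04, with Sdc4, a heparan sulfate proteoglycan, at −0.15 (SE 0.0800), Itga5 at −0.17 (SE 0.103) and Itgb1 at 0.09 (SE 0.0790). In these 3 lists no gene had an unadjusted p under 0.05 with edgeR, and DESeq2 called none.

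After cocaine none of the 6 lists had a call with edgeR without a replicate block, whose smallest adjusted p was 1. The ternary complex list had a median of 0.59 beside −0.01 for all genes tested, and 4 of its 12 genes had an unadjusted p under 0.05, beside 211 of all 18418 genes. Fos was at 2.01 and 7.73 CPM in home-cage NAc and 14.4 and 17.7 CPM after cocaine, a log2 change of 1.73 (SE 0.656). Arc changed by 0.95 (SE 0.250) and Junb by 0.70 (SE 0.167). DESeq2 called 2 of the list (Egr2 and Fosb, named after their values were seen). The myocardin-related list had a median of 0.01, the YAP signature 0.06, the Hippo components 0.01, the cofactors −0.04 and the receptors 0.03, with no gene at an unadjusted p under 0.05 in any of these 5 lists.

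**Figure D3:**
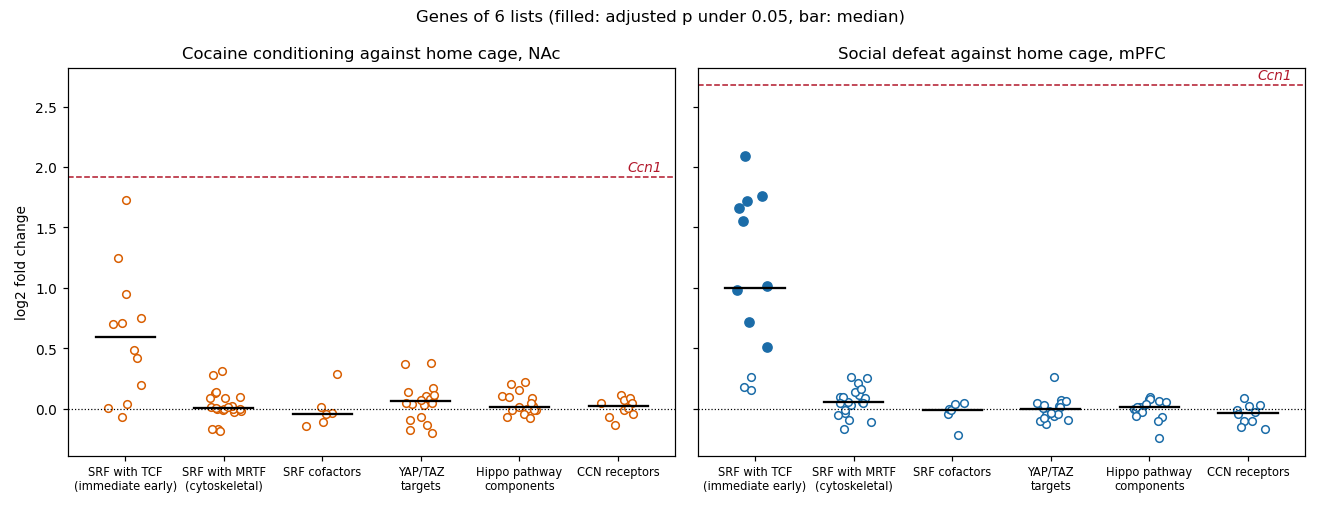
Log2 change of every tested gene of each pathway list in the 2 treatment comparisons, 1 point per gene, filled at an edgeR adjusted p under 0.05, with a bar at the list median and a dashed line at the log2 change of Ccn1. The ternary complex list, with medians of 1.002 after defeat and 0.59 after cocaine, stands above the other lists, whose medians lie between −0.04 and 0.06.

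The genes whose profile over the 8 libraries was most like that of Ccn1, by the root mean square difference of centred log2 CPM among 13142 candidates, were Btg2 (0.27), an antiproliferative gene, Npas4 (0.34), an activity-regulated transcription factor, and Mir212 (0.51). Ccn1 itself spanned 3.07 on this scale. Nearest to Ccn2, which spanned 1.52, were C1qtnf1 (0.16), Galnt15 (0.17) and Spink13 (0.19). Nearest to Srf, which spanned 0.41, were Gcsh (0.039), Hsph1 (0.043) and Ogdh (0.043). Because all genes vary over the same 8 libraries, likeness is a description of these libraries.

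Markers of cell types that can hold CCN transcripts were summed in each library. In mPFC the endothelial sum ran from 171 to 188 CPM in home-cage libraries and from 155 to 188 CPM after defeat, the mural sum from 175 to 179 and from 173 to 179, and the meningeal fibroblast sum from 57.4 to 66.3 and from 62.6 to 65.8, and each pair of ranges overlapped. Of the meningeal list, Igf2 was at 0 in all 8 libraries. Pdgfra held most of the meningeal sum, with means of 37.8 CPM in home-cage mPFC and 35.5 CPM after defeat (named after its values were seen). The blood list, with Alas2 at 0 in all 8 libraries and Hbb-bt at 0 in 5, went from 23.2 to 23.5 CPM in home-cage mPFC to 56.7 to 61.8 CPM after defeat, and 3 of its 4 tested genes rose. Its part in the Ccn1 result was not tested. Of the 8 meningeal genes tested edgeR called 1 higher (Fmod, named after its value was seen), against 0.549% of the 18027 genes tested. DESeq2 called none, and Fmod was not among the genes called with all 8 libraries in one fit. The fitted change was above 0 for 7 of these 8 meningeal genes and below 0 for 1, with a median of 0.18. An unadjusted edgeR p under 0.05 was found for 2 of the 8, beside 1288 of all 18027 genes. Astrocyte markers summed to between 3966 and 4047 CPM in home-cage mPFC and between 3775 and 3851 CPM after defeat. Slc1a2 held most of this sum, with means of 3144 and 2973 CPM (named after its values were seen). The fitted change was above 0 for 4 of 10 astrocyte genes and below 0 for 6, with a median of −0.04. Oligodendrocyte markers summed to between 1312 and 1570 and between 1174 and 1280 CPM, with 10 of 10 genes below 0 and a median of −0.19. Microglia markers, with P2ry12 at 0 in all 8 libraries, summed to between 211 and 213 and between 192 and 205 CPM. Of these, 9 of 9 tested genes were below 0, with a median of −0.07. Layer 6b markers summed to between 425 and 436 CPM in home-cage mPFC and between 368 and 388 CPM after defeat. Hs3st4 held most of this sum, with means of 423 and 371 CPM (named after its values were seen). The fitted change was below 0 for 3 of 3 genes with a median of −0.31. An unadjusted edgeR p under 0.05 was found for 3 of 3 layer 6b, 5 of 10 oligodendrocyte, 2 of 9 microglia and 1 of 10 astrocyte genes. Of all 18027 genes tested 1288 had one, and edgeR called no gene of these lists. In these bulk samples fewer cells of a type and less RNA per cell cannot be told apart. In NAc the endothelial sum ran from 148 to 163 CPM in home-cage libraries and from 167 to 177 CPM after cocaine, and these did not overlap. The fitted change was above 0 for 8 of 10 endothelial genes and below 0 for 2, with a median of 0.13. Groups did not overlap and were higher for 6 of the 10, against 11.8% of genes tested. An unadjusted edgeR p under 0.05 was found for 1, beside 211 of all 18418 genes, and edgeR called none. The sums of the other 9 marker lists overlapped between the NAc groups. Layer 6b markers summed to between 238 and 294 CPM in home-cage NAc and between 232 and 355 CPM after cocaine, and the fitted change was above 0 for 3 of 3 genes with a median of 0.48. For oligodendrocyte markers it was above 0 for 10 of 10 genes with a median of 0.36, and for striatal projection neuron markers below 0 for 9 of 10 with a median of −0.19, and edgeR called no gene of these 3 lists. The part of these shifts in the results for the 7 genes was not tested.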

How the data were processed

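Total RNA from NAc and mPFC of 8 libraries was sequenced by the submitters. The values deposited are whole-number counts for each gene symbol, not normalized. Per the submitters' processing notes, reads were aligned with STAR 2.7.1a to mm10 and counted with featureCounts. No label or header states the annotation release or the handling of strand, introns and multi-mapped reads. The members and the gene lists were chosen with earlier results of these data known.

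Counts were tested as deposited in R 4.3.3 with edgeR 4.0.16 (filterByExpr, TMM, quasi-likelihood F test). The 4 comparisons were cocaine with home cage in NAc, defeat with home cage in mPFC, the difference of those responses in a fit of all 8 libraries, and NAc against mPFC in home-cage mice. SE is the log2 change divided by the square root of F. DESeq2 1.42.0 was an alternative, with DESeq2 size factors in edgeR, no count filter, each library left out, all 8 libraries in one fit and a replicate block in NAc. Scripts were tested on simulated data. An exact permutation test of 2 against 2 cannot go below 0.333. Genes named beyond the members are the 3 of each pathway list with the smallest p after defeat, and the 3 profiles nearest to Ccn1, Ccn2 and Srf among genes with a mean of at least 1 CPM (prior count 2, provisional gene models skipped). Positions are from GENCODE M21 on GRCm38, and promoter sequences from RefSeq.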

Additional observations from a re-analysis of the deposited data

How the results depend on the processing

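Members called after cocaine went from 0 to 1 with DESeq2 (Ccn1) and to 2 with the replicate block (Ccn1, log2 change 1.91, and Ccn2, 0.75, edgeR adjusted p 6.58e-07 and 0.000757). Genes called there went from 0 to 4 with DESeq2 (Ccn1, Egr2, Fosb and Npas4, named after their values were seen) and to 38 with the block. The block rests on 2 pairs whose numbers no label ties to a batch, and deviations of same-numbered NAc libraries from their group means correlated at r = 0.609 across 18418 genes. No paired fit was made in mPFC, where titles give no shared numbers. After defeat, 127 genes were called, and with all 8 libraries in one fit 5 (Dusp1, Egr2, Fosb, Npas4 and Ovca2) and 0 members; leaving out 1 library gave 58 to 238 genes and 1 to 2 members. For the difference of the responses, DESeq2 called 2 genes (Hba-a1 and Ovca2), the block in NAc with all 8 libraries, chosen after seeing the data, called 3 (Hba-a1, Ovca2 and Rspo2), and leaving out 1 library gave 0 to 1 (Lgr6, without NAc home-cage replicate 1). Between regions, 2262 genes were called, 3683 with DESeq2 and 4654 with all 8 libraries in one fit, and leaving out 1 library gave 0 to 8048 genes and 0 to 4 members. The cause of these shifts was not tested.

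Of 66 gene results followed, 27 changed sign in some alternative, none of them called in the reported fit. Outside single-library omissions this was Ccn3 alone, at 0.016 after cocaine with the block and −0.024 for the difference with the block in NAc. Leaving out 1 library, the log2 changes after cocaine ran for Ccn3 from −0.61 to 0.72, Ccn4 −1.56 to 1.41, Srf −0.12 to 0.067, Myocd −0.34 to 1.003, Mrtfa −0.19 to 0.094, Elk4 −0.00029 to 0.033, Myl9 −0.057 to 0.048, Ccdc80 −0.58 to 0.76, Fjx1 −0.29 to 0.19, Vgll4 −0.058 to 0.041, Stk4 −0.054 to 0.028, Sdc4 −0.079 to 0.093 and Itga5 −0.39 to 0.69. After defeat they ran for Ccn2 from −0.23 to 0.014, Ccn3 −0.11 to 0.093, Srf −0.0060 to 0.16, Ccn6 −0.29 to 0.26, Mrtfa −0.098 to 0.013 and Elk4 −0.022 to 0.11. For the difference they ran for Ccn3 from −0.73 to 0.61, Ccn4 −1.12 to 1.86 and Ccn6 −0.43 to 0.12, and between regions for Ccn1 from −0.37 to 0.56, Ccn2 −0.66 to 0.22, Ccn3 −0.54 to 0.71, Amotl2 −0.050 to 0.12 and Ccn6 −0.14 to 0.40. With 2 libraries a group, a lone library is assumed to vary like the others, and Ankrd1 and Ccn5 had few counts in every library.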
